A study of Mus musculus with 6 samples.

Results

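The 3745 regions described here are promoter regions that were listed as open chromatin in ΔSRR2–18 NSPCs and not in parent NSPCs. They were chosen by 3 things: an interval in the conservative ATAC-seq peak list of the deletion, no overlap of even 1 bp with an interval of the conservative parent list, and a strongest summit within 1 kb of a transcription start site (TSS) of the GENCODE M21 basic annotation. They made up 5.52% (95% Wilson interval 5.35 to 5.70) of the 67794 deletion-only intervals and 20.97% (20.4 to 21.6) of the 17859 promoter regions among the 107480 intervals of the deletion list. Presence in one list and absence from the other was thus the selection itself, and peak heights below describe the members and are not tested.

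ATAC-seq uses a transposase that inserts sequencing adapters into accessible DNA, so that reads pile up at promoters and enhancers. Neural stem/progenitor cells (NSPCs) were derived from embryonic stem cells of a 129S1/Cast F1 hybrid and grown on poly-d-lysine and laminin with EGF and bFGF. The parent group was 3 cultures of clone 5B, which carries Sox2-mCherry on the 129 allele and no deletion. The deletion group was 3 cultures of clone 47D, which lacks SRR2–18, an enhancer cluster downstream of Sox2, on both alleles and carries the same reporter. Each genotype was 1 clone, so genotype and clone cannot be told apart, and the peak lists are pooled over the 3 cultures of a genotype, and hold no spread between cultures, which left the genotypes without a test. Intervals on shares below cover counting error only, and regions are not replicates of a genotype.

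The reads behind each summit could be recovered from the deposited fold enrichment and −log10 p. At its lowest the local background came to 38.8 reads for the parent and 19.7 for the deletion, a ratio of 1.98, so the parent list in which the members were missing was the deeper one. All 14 NSPC markers looked at, among them Sox2, Nes, Pax6 and Fabp7, had an interval of each genotype within 1 kb of a TSS.

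Promoters come in broad kinds. CpG-rich promoters lie in CpG islands, serve housekeeping genes and many developmental regulators, and are commonly open in most cell types. CpG-poor promoters tend to serve tissue-restricted genes and to open where a lineage or signal-dependent factor binds. AP-1, a dimer of FOS, JUN and related proteins that responds to growth factors and stress, binds the palindrome TGANTCA and is known to open chromatin at both promoters and enhancers.

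The windows printed here show members at genes named in this report, so that the sequence at the summit can be read beside the values. They were taken from the 10 strongest protein-coding genes and then from the leading genes of the gene lists, in order of fold enrichment, first with and then without an AP-1 match within 60 bp of the summit. Stronger members at genes outside these sets were not considered. The windows are the mm10 reference on the plus strand, 5′ to 3′, overlap no annotated exon, and carry matches to TGANTCA in capitals. The alleles of the F1 cells can differ from this reference.

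Krtap5-4: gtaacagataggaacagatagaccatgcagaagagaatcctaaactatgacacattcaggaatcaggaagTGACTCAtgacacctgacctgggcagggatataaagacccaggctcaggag
Cxcl10: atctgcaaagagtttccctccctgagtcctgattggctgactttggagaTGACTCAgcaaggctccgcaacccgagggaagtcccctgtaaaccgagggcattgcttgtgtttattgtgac
Runx2: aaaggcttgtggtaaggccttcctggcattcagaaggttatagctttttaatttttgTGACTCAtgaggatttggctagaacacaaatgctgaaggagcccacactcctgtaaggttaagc
Slc25a21: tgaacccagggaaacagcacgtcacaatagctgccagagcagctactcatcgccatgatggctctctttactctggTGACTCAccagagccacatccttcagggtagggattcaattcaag
Olfr556: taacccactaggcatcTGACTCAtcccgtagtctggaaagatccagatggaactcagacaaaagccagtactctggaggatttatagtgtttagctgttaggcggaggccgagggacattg
Mmp10: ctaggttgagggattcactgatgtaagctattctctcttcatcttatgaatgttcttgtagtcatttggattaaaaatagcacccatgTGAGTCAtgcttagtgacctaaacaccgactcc

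These lie at chr7:142303403-142303523 (Krtap5-4), chr5:92348908-92349028 (Cxcl10), chr17:44814959-44815079 (Runx2), chr12:57160047-57160167 (Slc25a21), chr7:102664709-102664829 (Olfr556) and chr9:7502191-7502311 (Mmp10). Positions are given on the plus strand, negative to the left of the summit. The match was centred on the summit itself at Runx2, 8 bp from it at Cxcl10 (-8) and 13 bp at Krtap5-4. At Slc25a21, Mmp10 and Olfr556 it lay at 19, 31 and -41 bp. The GC content of the 6 windows ran from 39.7% at Mmp10 to 52.1% at Cxcl10, and the Krtap5-4 and Runx2 windows held 0 CpG dinucleotides.

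Mctp1: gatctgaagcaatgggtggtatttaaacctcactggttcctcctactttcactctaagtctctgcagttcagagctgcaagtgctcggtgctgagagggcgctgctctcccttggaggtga
Dmd: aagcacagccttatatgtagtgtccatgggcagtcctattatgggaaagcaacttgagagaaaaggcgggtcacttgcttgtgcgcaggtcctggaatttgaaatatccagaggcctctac
Rbfox1: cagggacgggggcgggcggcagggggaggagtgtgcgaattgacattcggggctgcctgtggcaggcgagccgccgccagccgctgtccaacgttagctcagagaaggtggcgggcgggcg
Prss46: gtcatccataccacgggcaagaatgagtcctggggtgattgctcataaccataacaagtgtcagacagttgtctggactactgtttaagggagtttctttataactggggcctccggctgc

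These lie at chr13:76579547-76579667 (Mctp1), chrX:82948738-82948858 (Dmd), chr16:6348992-6349112 (Rbfox1) and chr9:110849339-110849459 (Prss46). Mctp1, Dmd and Prss46 had an AP-1 match just outside the printed window, at -73, 89 and 67 bp from the summit. The Rbfox1 window had none within 100 bp, a GC content of 71.9% and 13 CpG dinucleotides, and is the CpG-island kind of member.

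Members were weaker than promoter regions found in both genotypes. Fold enrichment over local background at the strongest summit had a median of 8.62 (quartiles 5.65 and 13.5, highest 35.4) in members and 14.1 (9.68 and 18.4) in the 14114 shared promoter regions of the same list. The median member stood at 61.6% of the deletion list ranked from the strongest interval, against 32.2% for shared promoter regions. Members were also narrower, with a median width of 598 bp against 1036.5 bp (quartiles 433 to 827 and 801 to 1303). A single summit was found in 62.0% of members and in 22.6% of shared promoter regions. Parent-only promoter regions were like the members, with a median width of 596 bp and a single summit in 65.9%. Their median fold enrichment, in the parent list, was 6.93. The IDR score, 1000 at most, rates how reproducible a peak was between cultures. A score of 1000 was carried by 76.9% (75.5 to 78.2) of members, 96.4% of shared and 75.3% of parent-only promoter regions.

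**Figure D1:**
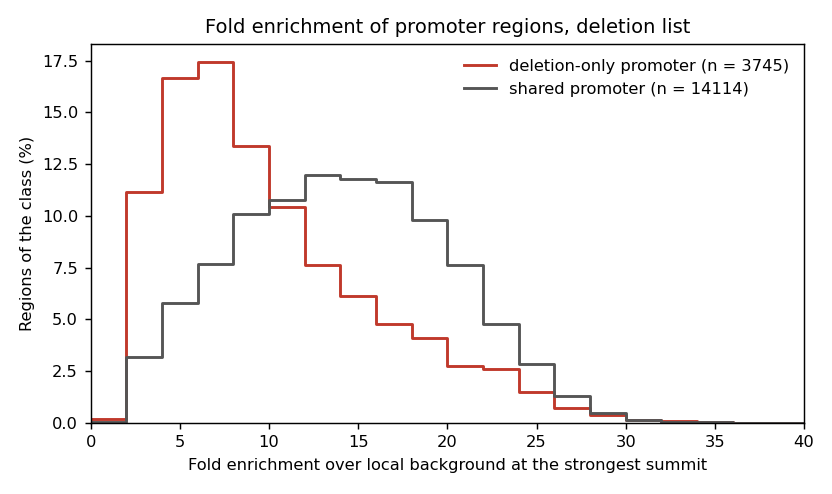
Share of regions (y axis, %) in bins of fold enrichment at the strongest summit (x axis) for the 3745 deletion-only and 14114 shared promoter regions of the deletion list. The members peak at lower values, with a median of 8.62 against 14.1.

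Most members lay well apart from any called parent interval, but parent signal at the members themselves was not measured. The nearest parent interval was a median of 6134 bp away (quartiles 1702 and 20149 bp), over 10 kb away for 38.9% of members and within 1 kb for 19.2%. Parent-only promoter regions lay a median of 3549 bp from the nearest deletion interval. Of the 3745 members, 3517 (93.9%) also overlapped no interval of the optimal parent list, a second list the pipeline gives for the same cultures. At the edge of the rule, 4931440P22Rik and Mir5114 lay 29 and 33 bp from a parent interval, and the smallest overlaps that kept a promoter region out were 3 bp at Bmp6 and 5 bp at Zc2hc1c. At the edge in distance, the summits at 9330161L09Rik and D930007P13Rik were 1000 bp from the TSS, with fold enrichments of 9.27 and 15.0. The regions just outside, at 4930594M22Rik and Gm29332, with summits 1001 and 1002 bp from the TSS, had 4.94 and 4.36.

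The members with the highest fold enrichment and no overlap with either parent list lay at genes of unlike kinds. The strongest protein-coding member was at Mctp1 (ENSMUSG00000021596.16), which encodes a calcium-binding membrane protein: chr13:76579362-76579990 in mm10, with 1161 reads at the summit and a fold enrichment of 33.8. Its TSS is an internal one, 195139 bp downstream of the first TSS of the gene. C3ar1 (ENSMUSG00000040552.8), the receptor for complement fragment C3a, had 669 summit reads and a fold enrichment of 32.3 at chr6:122855867-122856487, with the summit 5 bp upstream of the TSS. Dmd, which encodes dystrophin, reached 28.5 and Rbfox1, a neuronal splicing regulator, 28.4. The nearest parent intervals were 266059 and 395048 bp away.

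Krtap5-4, a hair keratin-associated protein gene, had a fold enrichment of 28.4 and Serpinb8, an intracellular serine protease inhibitor, 28.0 with 1301 summit reads. Prss46, a serine protease gene, followed at 27.5 and Mcpt8, a mast cell and basophil protease, at 27.2. Vmn1r40, a vomeronasal receptor gene, had 27.1 and Trim34a, of the interferon-linked TRIM family, 27.0. All 10 were within the strongest 1.37% of the deletion list by fold enrichment, the measure they were chosen by. Ranked by −log10 p they stood between 6.01% (Serpinb8) and 20.1% (Krtap5-4). An AP-1 match lay within 100 bp of the summit at Mctp1, C3ar1, Dmd, Krtap5-4, Serpinb8 and Prss46. Rbfox1, Mcpt8, Vmn1r40 and Trim34a had none.

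Members sat farther from the TSS than shared promoter regions did. The strongest summit was a median of 311 bp from the TSS in members and 68 bp in shared promoter regions. It was within 100 bp of the TSS in 28.8% of members (27.3 to 30.2), 59.8% of shared (58.9 to 60.6) and 26.1% of the 2516 parent-only promoter regions (24.4 to 27.8). Over 500 bp from the TSS lay 36.6% of members, 11.0% of shared and 38.3% of parent-only promoter regions. The summit fell in an annotated exon in 30.1% of members, in an intron in 37.3% and outside genes in 32.5%.

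**Figure D2:**
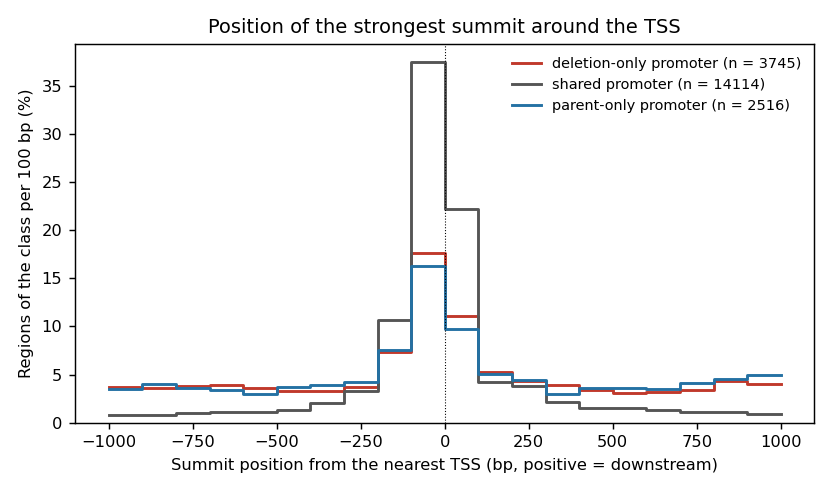
Share of regions per 100 bp (y axis, %) by position of the strongest summit from the nearest TSS (x axis, bp, positive is downstream). Shared promoter regions pile up at the TSS, while deletion-only and parent-only promoter regions have a lower centre and a flat floor out to 1000 bp.

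The TSSs themselves were of other kinds too. A protein-coding TSS was the nearest one for 53.1% of members (51.5 to 54.7), against 86.0% of shared (85.4 to 86.6) and 47.7% of parent-only promoter regions (45.7 to 49.6). Long intergenic noncoding RNAs took 13.9% of members, processed pseudogenes 7.80% and antisense RNAs 6.44%. TSSs of 2 or more genes lay within 1 kb of 7.69% of members, for which the nearest is only one candidate. Of the 1989 protein-coding members, 22.3% (20.5 to 24.2) lay at a TSS more than 1 kb downstream of the first TSS of the gene, an internal or alternative promoter. The share was 9.71% (9.19 to 10.2) in shared and 31.1% (28.6 to 33.8) in parent-only promoter regions.

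CpG-rich TSSs were the minority among members. A TSS was called CpG-rich where 501 bp around it had at least 50% GC and an observed to expected CpG ratio of at least 0.6. By this measure 878 members (23.4%, 22.1 to 24.8) were CpG-rich, against 74.8% (74.1 to 75.5) of shared and 13.6% (12.3 to 15.0) of parent-only promoter regions. Around the summit the mean GC content was 53.01% in members, 53.8% in parent-only and 64.8% in shared promoter regions. The CpG-rich members had a lower median fold enrichment than the 2867 CpG-poor ones, 7.49 against 8.98, and a shorter median distance to the TSS, 180.5 against 348 bp.

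An AP-1 match lay within 100 bp of the strongest summit in 35.6% of members (34.1 to 37.1). The share was 5.38% (5.02 to 5.76) in shared and 3.42% (2.77 to 4.20) in parent-only promoter regions. The ratio was 6.62 (6.10 to 7.18) against shared promoter regions and 10.4 (8.42 to 12.9) against parent-only ones. GC content moved with the first ratio, which was 2.97 when averaged over 5 groups of GC content. The ratio to parent-only regions was not computed at the same GC content. Mean GC content was close in both classes, but the quartiles were 45.3 and 60.2% in members and 48.3 and 57.7% in parent-only regions. In windows 500 bp to each side of the summit, the share in members was 5.45%, close to the 4.75% within 100 bp of all 77161 annotated TSS positions. Deletion-only regions away from promoters held a match in 51.6%.

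**Figure D3:**
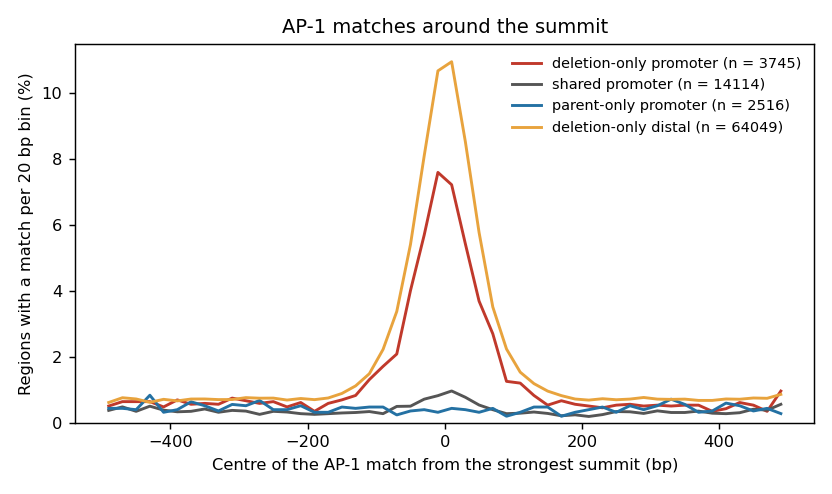
Share of regions with an AP-1 match (y axis, %, per 20 bp bin) by the distance of its centre from the strongest summit (x axis, bp). In the 20 bp before the summit the share is 7.58% in deletion-only promoter regions, 0.822% in shared and 0.318% in parent-only ones.

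AP-1 matches were unevenly spread among the members. They were found in 41.8% (39.96 to 43.6) of members at CpG-poor TSSs and in 15.5% (13.2 to 18.0) at CpG-rich ones. The share was 23.1% (20.7 to 25.7) with the summit within 100 bp of the TSS, 35.6% (33.01 to 38.2) from there to 500 bp and 45.4% (42.8 to 48.1) beyond. It was 45.7% (42.5 to 48.9) in the 937 members with the highest fold enrichment and 29.9% (27.1 to 32.9) in the 936 with the lowest. Protein-coding TSSs had a lower share than other TSSs, 26.8% (24.9 to 28.8) against 45.6% (43.2 to 47.9). The distance to the nearest parent interval made little difference, with 36.2% (32.8 to 39.8) within 1 kb and 35.6% (33.1 to 38.0) over 10 kb away. More than 1 match was found in 5.42% of members, 0.368% of shared and 0.0397% of parent-only promoter regions.

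Matches of several developmental factors were also more frequent in members than in parent-only promoter regions. The HOX-PBX site TGATTNAT, bound by HOX proteins with their PBX partners, was in 6.14% of members, 1.27% of parent-only and 0.999% of shared promoter regions. Its ratio was 4.83 (3.35 to 6.97) to parent-only regions and 6.15 (5.00 to 7.56) to shared ones, the latter 2.14 at the same GC content. With C at its N, the HOX-PBX site contains a match to the AP-1 site TGANTCA, so the same bases can count for both. How much of the HOX-PBX shares and ratios came from such overlaps was not tested. The RUNX site TGTGGTT was in 6.60% against 3.78% in parent-only regions, a ratio of 1.75 (1.39 to 2.20). The TEAD site ACATTCC, read by the partners of YAP, was in 7.42% against 5.37%, a ratio of 1.38 (1.13 to 1.69). The CDX and posterior HOX site TTTATNG was in 7.05% against 5.13%, a ratio of 1.37 (1.12 to 1.69), but in members it was less frequent at the summit than in the flanks (8.93%). Each of these sites was more frequent in deletion-only regions away from promoters. The shares there were 10.5% for HOX-PBX, 8.52% for RUNX, 10.0% for TEAD and 11.4% for CDX and posterior HOX. Against shared promoter regions at the same GC content the ratios were 1.66 for RUNX, 1.41 for TEAD and 1.07 for CDX and posterior HOX.

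Other sites, among them those of neural factors, went the other way. The NFI site TTGGCA, of factors that act in glial and neural stem cells, was in 8.95% of members and 23.6% of parent-only promoter regions, a ratio of 0.380 (0.335 to 0.430). It was in 9.93% of the flanks of members and in 6.91% of shared promoter regions, so the high share was that of the parent-only class. The RFX site GTTGCCA, of regulators of ciliary genes, was in 1.87% of members against 7.63% of parent-only regions, a ratio of 0.245 (0.187 to 0.321). The flanks of members held it in 2.18%. The SOX site AACAATG was in 2.51% against 4.57%, a ratio of 0.549 (0.420 to 0.718), and in members it was as frequent in the flanks (2.59%). Against shared promoter regions the SOX ratio was 2.49 (1.93 to 3.23), but 0.896 at the same GC content. The octamer ATGCAAAT of POU factors was in 0.961% against 2.27%.

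Sites typical of housekeeping promoters were rarer in members than in shared promoter regions, and were also rare in parent-only ones. The SP and KLF site GGGGCGG was in 10.6% against 37.4%, the ETS site CCGGAAG in 2.54% against 13.2% and the NRF1 site GCATGCG in 1.01% against 4.10%. At equal GC content the ratios of members to shared promoter regions were 0.631, 0.287 and 0.391. Parent-only promoter regions held these sites in 7.27%, 2.27% and 0.795%. Within the members, GGGGCGG was in 22.1% (19.5 to 25.0) at CpG-rich and 7.12% (6.23 to 8.11) at CpG-poor TSSs. The AACCGGTT site of GRHL factors was in 0.0534% of members, and the Grhl2 promoter was itself a member. All sites were searched on both strands; SP and KLF shares overlap with those of GGGNGTG.

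**Figure D4:**
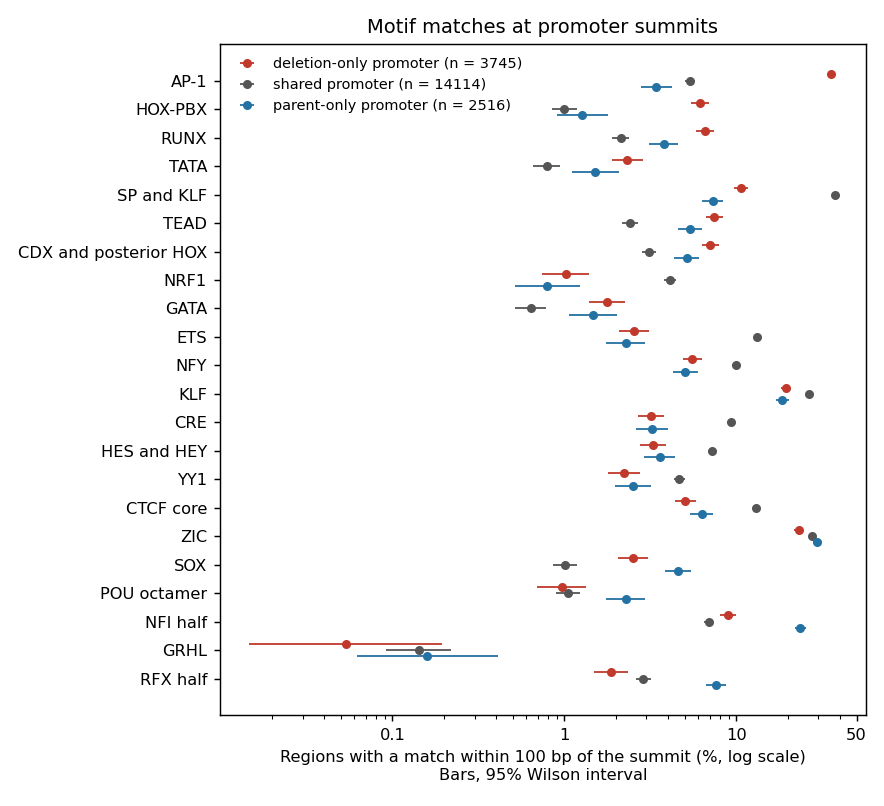
Share of deletion-only, shared and parent-only promoter regions with a match to each of 22 motifs within 100 bp of the strongest summit (x axis, %, log scale; bars, 95% Wilson interval), ordered by the ratio of members to parent-only regions. AP-1 is at the top with 35.6, 5.38 and 3.42%, and NFI and RFX sites are near the bottom.

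At the level of genes, 1847 of 21938 protein-coding genes (8.42%) had a member as the region at their TSS, and 1120 (5.11%) had a parent-only promoter region. Of the 1847, 1174 (5.35% of all protein-coding genes) had no parent interval within 1 kb of any of their TSSs, while 673 had one, at another TSS or beside the member. An AP-1 match was in 22.2% (20.0 to 24.6) of the members at genes without a parent interval and in 34.8% (31.4 to 38.3) at genes with one. Both a deletion-only and a parent-only promoter region were found at 114 genes. Gene groups below are counts to be read against the share of 8.42% for members and of 5.11% for parent-only promoter regions. In pooled cultures, a promoter open in a few cells and one weakly open in many cannot be told apart.

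Genes of an epithelial list were frequent among the members, but keratin genes as a family were not. Of 46 epithelial keratin and junction genes, 17 (37.0%, 24.5 to 51.4) had a member and 2 had a parent-only promoter region, and 16 of the 17 had no parent interval near any TSS. Grhl2, a master regulator of epithelial identity, had the highest fold enrichment at 14.8, with 390 summit reads in a CpG-rich promoter. Epcam, an epithelial adhesion molecule, followed at 13.8 and Dsc2, a desmosomal cadherin, at 11.2. Krt19, a keratin of simple epithelia, was the lowest at 3.19 and the only keratin among the 17. Of the 18 members of these genes, 10 were at CpG-rich TSSs and 5 had an AP-1 match. Grhl2 and Epcam had none. In a separate list of 53 keratin genes, 3 had a member (5.66%), below the 8.42% over all protein-coding genes.

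Genes of the extracellular matrix, integrins and proteases had a member in 20 of 64 cases (31.2%, 21.2 to 43.4), and 2 had a parent-only promoter region. No parent interval lay near 15 of the 20. Thbs2, a matrix glycoprotein that binds cells and proteases, had a fold enrichment of 20.6 with 1969 summit reads 17 bp upstream of its TSS (-17). Lox, the enzyme that crosslinks collagen, had 16.5 and the stromelysin gene Mmp10 had 16.2. In contrast to the epithelial group, 3 of the 20 members were CpG-rich. AP-1 matches were in 7 of them, Mmp10 included. The match in its window is the form TGAGTCA, printed above.

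Neural crest and mesenchymal markers had the highest share, 12 of 27 (44.4%, 27.6 to 62.7), against 3 (11.1%) with a parent-only promoter region. Of the 12, 7 had no parent interval near any TSS. Runx2, the regulator of bone formation, led with a fold enrichment of 22.3 and an AP-1 match at the summit. Its summit lay 222 bp upstream of the first TSS (-222), and other TSSs of Runx2 had a parent interval. Meox2 and Meox1, homeobox genes of the somite and its derivatives, had 13.3 and 10.7. The Meox1 member was 192 bp from a parent interval. Endothelial and blood markers had a member in 6 of 22 cases (27.3%) and none had a parent-only promoter region. Cd34, a surface protein of endothelium and blood progenitors, had 18.0, the angiopoietin receptor gene Tek 15.8 and the tight junction gene Cldn5 11.6.

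Immune genes were moderately represented. Inflammatory cytokines, chemokines and receptors had a member in 9 of 46 cases (19.6%, 10.7 to 33.2). They had a parent-only promoter region in 6 (13.0%), also above the 5.11% over all protein-coding genes. Of the 9 genes with a member, 6 had no parent interval near any TSS. The interleukin 1 receptor gene Il1r1 had a fold enrichment of 23.1 with 1932 summit reads. The interferon-induced chemokine gene Cxcl10 had 22.5 and the chemokine receptor gene Ccr1 14.2. Interferon response genes had a member in 9 of 37 cases (24.3%, 13.4 to 40.1), and 6 of the 9 had no parent interval near any TSS. Bst2, an antiviral tether of budding virions, had 19.5, and Irf2, an interferon regulatory factor, had 16.8 at an internal TSS. Neither had an AP-1 match.

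Of 39 Hox genes, which set position along the body axis, 10 had a member (25.6%, 14.6 to 41.1). A parent-only promoter region was found at 6 (15.4%), also above the 5.11% over all protein-coding genes. The 10 were Hoxc13, Hoxb13, Hoxd9, Hoxb6, Hoxc8, Hoxc11, Hoxa9, Hoxa7, Hoxc6 and Hoxb7, with fold enrichments from 11.3 at Hoxc13 and 10.7 at Hoxb13 down to 2.26. Of the 10 members, 7 were at CpG-rich TSSs and 0 had an AP-1 match. Forebrain identity factors had a member in 11 of 29 cases (37.9%, 22.7 to 56.0) and a parent-only promoter region in 4 (13.8%). No parent interval lay near any TSS of 6 of the 11. Tbr1, a factor of cortical neurons, had 7.20 and Otx2, of the fore- and midbrain, 7.02, at TSSs 1809 and 8713 bp downstream of the first. Otx2 also had a parent interval near a TSS. Lhx8, of basal forebrain neurons, had 5.94, with its member 525 bp from a parent interval. AP-1 matches were in 1 of the 12 members of the forebrain genes, and 8 were CpG-rich.

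The Hox and forebrain counts rested mostly on weaker members. When the deletion list was cut by fold enrichment to the number of parent intervals, 3 Hox genes and 2 forebrain factors still had a member, shares of 7.69% and 6.90% beside a background of 5.54%. Under the same choice the neural crest group went from 12 to 6 genes (22.2%) and the epithelial group from 17 to 11 (23.9%). The epithelial, matrix and neural crest groups kept a ratio to the background of at least 2.93 over the 11 other choices of regions tried. Of the caudal progenitor genes, 2 of 19 (10.5%) had a member, Wnt3a at 4.30 and Sall4 at 3.87.

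Neuronal and glial genes had members as well. Synaptic receptors and ion channels had a member in 16 of 45 cases (35.6%, 23.2 to 50.2) and a parent-only promoter region in 4 (8.89%). No parent interval lay near any TSS of 8 of the 16. The genes of this list had a median of 3 annotated TSSs against 2 over all protein-coding genes. The part of this in the count was not tested. After Rbfox1, the highest was the postsynaptic scaffold gene Shank2 at 14.3, at a TSS 282511 bp downstream of the first. Glial maturation genes had a member in 5 of 23 cases (21.7%), with Gpr17, a receptor of oligodendrocyte precursors, at 15.5, Nkx6-2 at 6.08 and Nkx2-2 at 5.40. Among the 14 NSPC markers, the glutamate transporter gene Slc1a3 had a member, at 5.74, 223 bp from a parent interval.

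**Figure D5:**
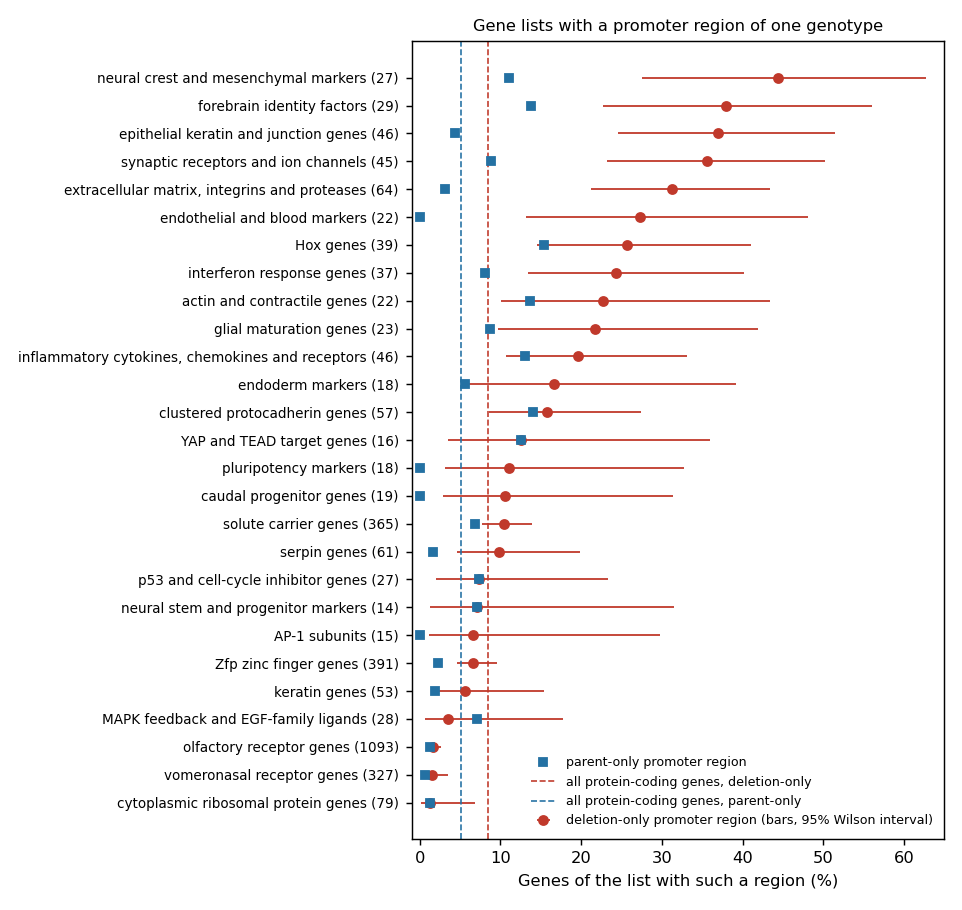
Share of genes in each of 27 lists (list size in brackets) with a deletion-only promoter region (circles; bars, 95% Wilson interval) or a parent-only one (squares), with dashed lines at the shares over all protein-coding genes, 8.42 and 5.11%. Neural crest, forebrain, epithelial, synaptic and matrix lists are at the top, and ribosomal and chemosensory receptor genes at the bottom.

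Solute carrier genes had a member in 38 of 365 cases (10.4%, 7.68 to 14.0), an interval that holds the 8.42% over all protein-coding genes. The vesicular glutamate transporter gene Slc17a8 had 23.4. The monocarboxylate transporter gene Slc16a4 had 22.6, but its member overlapped an interval of the optimal parent list. The p53 and cell-cycle inhibitor genes had a member in 2 of 27 cases (7.41%), Cdkn1c at 6.95 and Cdkn1a at 3.96. MAPK feedback and EGF-family genes had 1 of 28 (3.57%), Nrg1, at a TSS 965638 bp downstream of the first. Genes of AP-1 itself had 1 of 15 (6.67%), Mafg at 4.71, while 13 of the 15 had a shared promoter region. Cytoplasmic ribosomal protein genes had 1 of 79 (1.27%, 0.224 to 6.83), below the background share. Of the 79, 67 had a shared promoter region and 11 had no promoter region of either genotype. YAP and TEAD target genes had 2 of 16 (12.5%), of which Ankrd1, induced by YAP and by muscle strain, reached 21.6 with 1592 summit reads.

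Most genes had 1 member, 123 protein-coding genes had 2 and 9 had 3 or more. Adcy7, an adenylyl cyclase gene, had 4, with fold enrichments from 3.43 to 12.6. Ank3, which encodes the ankyrin of the axon initial segment, had 3 at internal TSSs 134776, 386529 and 526777 bp downstream of its first, with fold enrichments of 27.0, 6.92 and 9.52. Cobl, an actin nucleator gene, had 3 from 7.95 to 14.1, and the stress- and glucocorticoid-induced kinase gene Sgk1 had 3 from 3.73 to 15.3. The olfactory receptor gene Olfr1260 had 3 from 4.89 to 10.3.

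The members were spread over all autosomes and the X chromosome. They were 16.4% (13.5 to 19.8) of the promoter regions of the deletion list on the X chromosome, the lowest share, and 27.0% (23.7 to 30.6) on chromosome 14, the highest.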

How the data were processed

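The authors sequenced transposed DNA of 3 parent and 3 ΔSRR2–18 NSPC cultures. Reads were processed with the ENCODE ATAC-seq pipeline to mm10, with peaks called by MACS2 and combined over cultures by IDR. The columns deposited for a peak are its IDR score, the fold enrichment (a ratio over local background), a −log10 p-value, a −log10 q-value and the summit. The sample labels give 30000 cells and 50 to 60 M reads per culture. The labels name deepTools and no peak caller settings. One allele is castaneus, so reads that differ from mm10 can map less often.

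The conservative lists were used and the 2 optimal lists, also deposited, served as alternatives. An interval listed once per summit was counted once, with the values of its summit of highest fold enrichment. Members, gene lists and motifs were chosen with earlier results of these data known. Genes named are the 10 protein-coding genes with the strongest members that overlap neither parent list, up to 3 per gene list and up to 5 with the most members; others are named as list members or edge cases. Some genes that this rule names are not reported here. A motif counted when its letters occurred, on any strand, no more than 100 bp from the summit. Reads were solved from fold enrichment and −log10 p by the Poisson model of the peak caller and came out whole (within 0.05) in 100% of intervals of both lists. They are pileup heights. Intervals are 95%, by Wilson's method for a share and on the log scale for a ratio, and cover counting error only. Overlap, nearest TSS, motif scan and read recovery were tested on simulated data. Python 3.11.15, pandas, scipy and pysam were used. The RefSeq GRCm38.p6 FASTA gave the sequences.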

Additional observations from a re-analysis of the deposited data

How the results depend on the processing

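No paired analysis was possible because the peak lists are pooled over the 3 cultures of each genotype, and for the same reason no culture could be left out. Depth limits what a weak region can show, since the lists keep only peaks that passed the peak caller and IDR. With a TSS limit of 500 bp there were 2373 members, 3.50% of deletion-only regions, of which 58.0% were at protein-coding and 24.9% at CpG-rich TSSs and 29.9% had an AP-1 match, with a median rank of 57.6%. With 2.5 kb these were 7802, 11.5%, 49.2% at protein-coding TSSs, 42.5% with AP-1 (ratio to shared promoter regions 5.997) and a rank of 65.7%. With protein-coding TSSs only there were 2052 members (3.03%), 37.3% CpG-rich and 26.4% with AP-1, at a rank of 65.5%. With no parent interval within 1 kb, members were 4.94% of deletion-only regions, 49.9% at protein-coding and 18.9% at CpG-rich TSSs, at a rank of 55.3%. With the deletion list cut by fold enrichment to the parent number there were 2485 members (4.98%), 50.5% protein-coding, 19.9% CpG-rich and 37.9% with AP-1 (ratio 7.21), at a rank of 57.6%. A motif window of 50 bp gave an AP-1 share of 27.5% and a ratio of 7.78. At equal GC content the AP-1 ratio was 2.97 and the SOX ratio turned from 2.49 to 0.896. Ranked by −log10 p, the median member stood at 59.0%. The other 60 values stayed within their intervals, or within 1.5 times for counts, under these settings, the optimal lists, absence from both parent lists, merged intervals, an IDR score of at least 830, autosomes only and a −log10 p of at least 20. Counts for 10 gene lists were recomputed after the data were seen: over 11 choices of regions the ratio of the list's share to that of all protein-coding genes was 3.70 to 5.42 for epithelial, 2.93 to 3.95 for matrix, 3.22 to 7.33 for neural crest, 2.68 to 4.57 for synaptic, 1.25 to 4.51 for forebrain and 1.39 to 4.23 for Hox genes. The causes were not tested.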

Other observations

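Processed pseudogenes had 292 members with a median fold enrichment of 10.1, against 8.14 for protein-coding genes, and an AP-1 match in 53.1% of them against 26.8%. The 521 members at long intergenic noncoding RNAs had a median of 9.32 and an AP-1 match in 44.3%. Micro-RNA genes had 112 members at 110 genes, with a median of 8.08 and an AP-1 match in 39.3%. Among the strongest, chosen after their values were seen, were Ptges3-ps, a pseudogene, at 29.8, and Mir7008 at 24.1, each with 2 AP-1 matches. Egfros, an antisense RNA of the EGF receptor locus, had 20.1 and 2 matches, with its summit 38 bp upstream of the TSS (-38).

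Olfactory receptor genes had a member in 18 of 1093 cases (1.65%), below the share over all protein-coding genes, and 1062 had no promoter region of either genotype. Of their 21 members, 14 had an AP-1 match and 0 were CpG-rich. Clustered protocadherin genes, which give neurons their surface identity, had a member in 9 of 57 cases (15.8%) and a parent-only promoter region in 8 (14.0%). None of those 9 had a parent interval within 1 kb of any TSS, and 0 of their members had an AP-1 match. Pcdhgb6, Pcdhga7 and Pcdhgb7 led with fold enrichments of 13.2, 11.5 and 10.7. Zfp zinc finger genes had a member in 26 of 391 cases (6.65%), below the share over all protein-coding genes, and 20 of their 28 members were CpG-rich. Serpin genes had 6 of 61 (9.84%), with Serpinb2 at 15.0 after Serpinb8.
Pseudogenes, receptor genes, protocadherins and zinc finger genes have near-identical copies, so reads could be shared or lost among them and their values are uncertain.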
